A study of Mus musculus with 9 samples.

Results

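Interferon-stimulated genes are the genes that cells switch on when they sense an interferon, and 45 of them were chosen by gene symbol for this description of the mouse retina. Of these, 44 were found in the deposited gene count table of 26683 genes, each with at least 10 counts summed over the 9 libraries, and Mx2 was not analysed here. The lowest sums were 154 counts for Oas3 and 204 counts for Oas2, so no named gene lay just under the minimum. Membership rested on symbol and on that sum, and the symbols were chosen with earlier results of these data known. All 44 genes also passed the filter on low counts that precedes the test, which kept 17362 genes of the table.

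Total RNA from whole retinas was sequenced in bulk, with 3 libraries in each of 3 groups. Gel retinas were those of OIR mice (oxygen-induced retinopathy, in which pups are kept in high oxygen and returned to room air, after which retinal vessels regrow abnormally) whose vitreous received the hydrogel PCC1/PHCF at postnatal day 15. PCC1 is procyanidin C1, a polyphenol found in grape seeds, which the hydrogel releases slowly and which the series title presents as killing senescent cells. PBS retinas came from OIR mice given phosphate-buffered saline into the vitreous on the same day, and Normoxic retinas came from mice kept in normal oxygen, which are not said to have been injected. All retinas were taken at postnatal day 17. Strain, sex and genotype are not given in the sources used here. No group received a hydrogel without PCC1, so Gel covers the compound and its carrier together, and PBS differs from Normoxic in oxygen history and, as far as the labels say, in injection. The labels do not say whether the 3 libraries of a group are separate animals, and the p-values below measure only the spread between these samples.

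Type I interferons bind a receptor of the IFNAR1 and IFNAR2 chains, whose kinases JAK1 and TYK2 act on STAT proteins such as STAT2, which joins IRF9 in a complex that binds the interferon-stimulated response element (ISRE) in promoters. Interferon gamma signals through its own receptor to another promoter element, the gamma-activated site (GAS). The genes reached in this way encode proteins that bind foreign RNA, block viral entry, attack the vacuoles of intracellular pathogens, or amplify and end the interferon signal itself. In the retina and brain, microglia that express these genes are known from injury and ageing.

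Library totals ran from 29324142 to 35663470 counts, so that 1 CPM (the count of a gene scaled to a library total of 1e+06 counts, used for all levels below unless stated) rested on 29.3 to 35.7 counts. Gnat1, which encodes the transducin subunit of rod photoreceptors and marks retina, stood between 9840 and 13100 CPM in every library. The libraries carry 1 batch date. Features of 3 libraries touch the results: Normoxic 3 was low for the interferon-stimulated genes, Gel 1 was the lowest Gel library for most of them, and PBS 3 differed from the other PBS libraries by gene length (Spearman correlation across genes of −0.49 between length and its deviation from the PBS mean). Taken from each group's own mean, this correlation was 0.32 and 0.41 in PBS 1 and PBS 2. It was 0.32, −0.29 and −0.2 in Gel 1 to 3, so the Gel libraries differed by gene length too. PBS 3 also had 2.68% of its counts in ribosomal protein genes, against 1.35% and 1.3% in PBS 1 and PBS 2. Markers of the pigment epithelium and choroid summed to 229 CPM in PBS 3, against 59.7 and 62.5 CPM in PBS 1 and PBS 2. Its median log2 difference from those libraries was 0.6 over microglia and macrophage markers and −0.21 over the interferon-stimulated genes. The part of these features in the results was not tested. The interferon-stimulated genes had a median length of 3078.5 bases, against 3649.5 bases over all tested genes.

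Taken per gene length as FPKM (fragments scaled by gene length and library total, the scale on which genes can be compared with each other), Ifitm3 had the highest level of the 44 genes in PBS retinas. It averaged 57.1 ± 22.2 FPKM in Gel, 101 ± 12.6 FPKM in PBS and 20.2 ± 9.19 FPKM in Normoxic retinas (SD, n = 3 each). Bst2 followed with 22.8 ± 6.37 FPKM in Gel, 39.1 ± 3.81 FPKM in PBS and 8.4 ± 4.11 FPKM in Normoxic retinas. Next in PBS retinas came Irf7 at 33.7 ± 2.61 FPKM and Lgals3bp at 33.0 ± 7.52 FPKM, then Oasl2 at 26.1 ± 8.16 FPKM and Isg15 at 26.1 ± 6.03 FPKM, and the members of each of these pairs did not differ beyond their spread. The lowest levels in PBS retinas were those of Oas2, at 0.252 FPKM, and Oas3, at 0.157 FPKM, genes whose counts per library ran from 3 to 51.

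**Figure D1:**
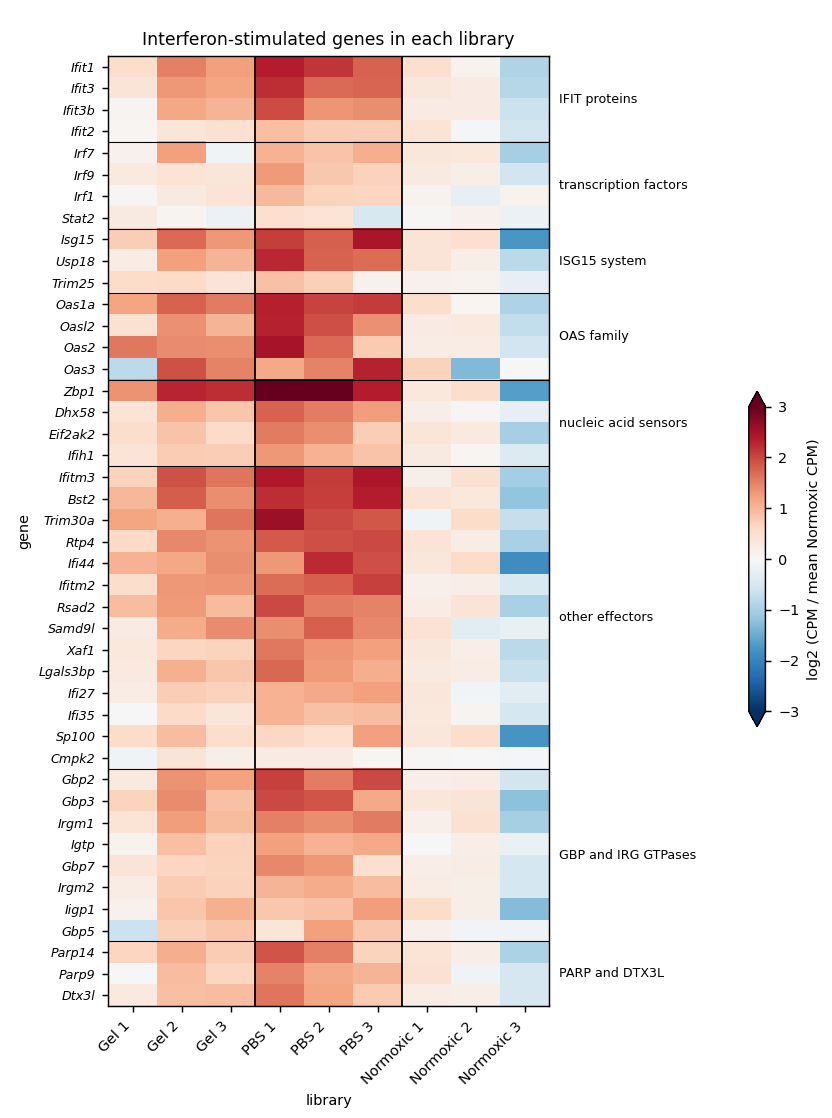
Heat map of the 44 genes (rows, grouped by role and, within a role, ordered by the PBS over Normoxic fold change) in the 9 libraries (columns); colour is the log2 of a library's CPM over the mean Normoxic CPM, and values beyond 3 take the end colour. The PBS columns are the darkest red for most genes, the Gel columns lie between, and Normoxic 3 is blue for most genes.

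In PBS compared with Normoxic retinas, which asks how the OIR retina after a saline injection differs from a normoxic one, the interferon-stimulated genes were higher as a set. All 44 had a positive log2 fold change, with a median of 1.47 and a range of 0.19 (Cmpk2) to 2.90 (Zbp1), beside a median of 0.01 over all tested genes, of which 51.3% were above 0 and 48.7% below. By edgeR's quasi-likelihood test with Benjamini-Hochberg adjustment over all tested genes and a threshold of 0.05 on the adjusted p, 36 of the 44 rose and 0 fell, beside 4.31% of all tested genes called higher and 2.03% called lower. At an unadjusted p under 0.05 these counts were 41 and 0, beside 12.3% and 9.03% of all tested genes, DESeq2 called 37 higher and 0 lower, and limma-voom called 35 higher and 0 lower. For 42 of the 44 genes the 3 PBS libraries lay above the 3 Normoxic libraries without overlap, beside 14.9% of all tested genes. In bulk RNA, fewer cells of a type and less RNA per cell cannot be told apart, here or in any comparison below.

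The IFIT proteins bind RNAs that carry foreign ends and stop their translation, and all 4 genes rose in PBS retinas. Ifit1, the cap-binding member, stood at 7.34, 14.4 and 12 CPM in Gel 1 to 3, at 26.0, 22.3 and 17.3 CPM in PBS 1 to 3, and at 7.06, 5.45 and 2.74 CPM in Normoxic 1 to 3. Its lowest PBS library was above its highest Normoxic library, and Gel 1 was almost level with Normoxic 1. The log2 fold change of PBS over Normoxic was 2.11 ± 0.33 (SE), a 4.33-fold difference, with an edgeR adjusted p of 0.00402. Ifit3, whose protein stabilises IFIT1, had 19.7, 36.8 and 34.1 CPM in Gel, 70.0, 48.8 and 50.7 CPM in PBS and 19.1, 17.7 and 8.26 CPM in Normoxic retinas. PBS 1 was the highest library and Normoxic 3 the lowest (log2 fold change of PBS over Normoxic 1.92 ± 0.31, edgeR adjusted p = 0.00506). Ifit3b, a mouse copy of Ifit3, had 6.26, 13.2 and 11.9 CPM in Gel, 23.1, 14.9 and 15.5 CPM in PBS and 6.96, 6.98 and 3.79 CPM in Normoxic retinas. Its rise of 1.60 ± 0.31 (edgeR adjusted p = 0.0126) did not pass the threshold without Normoxic 3, where the adjusted p was 0.0559. The transcripts of Ifit3 and Ifit3b are 97.8% identical over 1700 aligned bases in GENCODE M21, so how reads were divided between them is uncertain. Ifit2 rose least of the 4, by 0.82 ± 0.21 (edgeR adjusted p = 0.04), and its call was lost without Normoxic 2, Normoxic 3, PBS 1, PBS 2, Gel 2 or Gel 3, where the adjusted p reached 0.136.

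The promoters of Ifit1 and Ifit3 are shown for the ISRE letters that they share, whereas those of Ifit2 held a GAS match and no ISRE match. Binding of the factors described next was not tested. Capitals mark matches to GAAANNGAAA or to its reverse complement TTTCNNTTTC, written 5′ to 3′ on the gene's strand from RefSeq promoters of mouse build GRCm38.p6. That build differs from the GRCm39 of the submitters' processing notes, and the stretches are chr19:34640765-34640833 (Ifit1, plus strand) and chr19:34583353-34583436 (Ifit3, plus strand).
Ifit1: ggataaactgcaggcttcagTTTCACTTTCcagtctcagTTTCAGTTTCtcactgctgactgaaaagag
Ifit3: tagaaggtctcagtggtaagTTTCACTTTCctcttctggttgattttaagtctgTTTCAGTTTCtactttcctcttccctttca
Both promoters hold 2 ISRE matches upstream of the annotated start. The matching 84 bases of Ifit3b (chr19:34607749-34607832, plus strand) differ from those of Ifit3 at 0 positions.

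Of the 4 transcription factors that carry the interferon signal, 2 rose in PBS retinas. Irf1, an activator that interferon gamma induces strongly, had 7.44, 8.69 and 9.61 CPM in Gel, 14.2, 11.5 and 11.2 CPM in PBS and 7.78, 6.12 and 7.77 CPM in Normoxic retinas. It was among the 3 genes for which Normoxic 3 was not the lowest Normoxic library, and the log2 fold change of PBS over Normoxic was 0.78 ± 0.16 (edgeR adjusted p = 0.0183, and up to 0.0946 without Normoxic 1, Normoxic 2 or PBS 1). Irf9, the DNA-binding part of its complex with STAT2, had 30.2, 32.7 and 31.6 CPM in Gel, 59.9, 43.1 and 39.6 CPM in PBS and 29.5, 27.8 and 16.4 CPM in Normoxic retinas. Its rise of 0.96 ± 0.21 (edgeR adjusted p = 0.0206) was lost without Normoxic 2, Normoxic 3 or PBS 1, with an adjusted p of up to 0.0623. Irf7, which drives the production of type I interferons, varied widely within Gel and Normoxic retinas. It had 35.6, 77.1 and 30.5 CPM in Gel, 67.0, 59.5 and 69.1 CPM in PBS and 41.2, 40.8 and 16.3 CPM in Normoxic retinas. Gel 2 lay above every PBS library while Gel 1 and Gel 3 lay below the higher Normoxic libraries, and the log2 fold change of PBS over Normoxic, 1.01 ± 0.38, missed the threshold (edgeR adjusted p = 0.152). Stat2 had 72.1, 63.1 and 52.9 CPM in Gel, 84.1, 78.7 and 43.1 CPM in PBS and 61.5, 64.9 and 52.8 CPM in Normoxic retinas. Its groups overlapped, with PBS 3 the lowest of all 9 libraries, and the log2 fold change of PBS over Normoxic was 0.20 ± 0.21 (edgeR adjusted p = 0.597).

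Irf1 is shown for the GAS element in its promoter, in capitals (TTCNNNGAA, which reads the same on both strands, chr11:53769904-53769952, plus strand). Stat2 is shown as a gene with an ISRE match that did not pass the test (chr10:128270256-128270305, plus strand).
Irf1: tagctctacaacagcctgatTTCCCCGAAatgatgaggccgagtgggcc
Stat2: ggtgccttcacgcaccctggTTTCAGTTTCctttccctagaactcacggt
The match in Irf1 lies within the 150 bases before the annotated start, and that in Stat2 lies farther upstream.

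ISG15 is a ubiquitin-like protein that is attached to other proteins in interferon-treated cells, USP18 removes it and also shuts off the type I receptor, and TRIM25 is a ubiquitin ligase of the RNA-sensing pathway. Usp18 had 4.54, 9.20 and 7.86 CPM in Gel, 18.7, 13.3 and 12.4 CPM in PBS and 5.08, 4.40 and 2.22 CPM in Normoxic retinas. The PBS libraries were above all others, and Gel 1 fell inside the Normoxic range (log2 fold change of PBS over Normoxic 1.93 ± 0.32, edgeR adjusted p = 0.00609). Isg15 had 7.54, 14.7 and 11.1 CPM in Gel, 18.9, 15.6 and 24.6 CPM in PBS and 5.87, 6.37 and 1.34 CPM in Normoxic retinas. Here all 3 groups were separate from each other, and Normoxic 3 was far below the other Normoxic libraries. The rise of 2.14 ± 0.45 (edgeR adjusted p = 0.0178) did not pass the threshold without Normoxic 1 (adjusted p = 0.0554). Trim25 had 50.5, 51.7 and 45.3 CPM in Gel, 63.0, 56.4 and 37.9 CPM in PBS and 37.4, 36.8 and 28.9 CPM in Normoxic retinas. Its Gel and PBS libraries were intermingled and above the Normoxic ones, and the PBS over Normoxic value of 0.61 ± 0.17 missed the threshold (edgeR adjusted p = 0.0544).

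The Isg15 promoter is shown because its capitals run over 3 overlapping ISRE matches (chr4:156200855-156200916, minus strand).
Isg15: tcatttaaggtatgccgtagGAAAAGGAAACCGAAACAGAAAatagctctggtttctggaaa
All of them lie in the 150 bases before the annotated start.

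The OAS enzymes make short oligoadenylates that activate an RNA-degrading enzyme, and 3 of the 4 genes rose in PBS retinas. Oasl2, an OAS-like gene, had 29.7, 55.7 and 44.1 CPM in Gel, 107, 83.3 and 55.7 CPM in PBS and 25.7, 26.4 and 13.1 CPM in Normoxic retinas. Gel 2 and PBS 3 were level, and every Gel library was above every Normoxic one (log2 fold change of PBS over Normoxic 1.92 ± 0.31, edgeR adjusted p = 0.00506). Oas1a had 1.68, 2.5 and 2.19 CPM in Gel, 3.73, 3.03 and 3.18 CPM in PBS and 1.06, 0.769 and 0.392 CPM in Normoxic retinas. The 3 groups did not overlap, in the order PBS, Gel, Normoxic, and the log2 fold change of PBS over Normoxic was 2.17 ± 0.34 (edgeR adjusted p = 0.0042). Oas1a and its neighbour Oas1g have transcripts that are 97.5% identical over 1860 aligned bases, so the split of reads between them is uncertain. Oas2 had 0.875, 0.785 and 0.771 CPM in Gel, 1.62, 0.954 and 0.506 CPM in PBS and 0.341, 0.338 and 0.196 CPM in Normoxic retinas. Its rise of 1.80 ± 0.47 (edgeR adjusted p = 0.0466) rests on few counts and held, of the 9 fits that left out 1 library, in the one without PBS 3 alone, with an adjusted p of up to 0.185 in the others. Oas3 spread from 0.135 to 0.869 CPM in Gel, from 0.510 to 1.15 CPM in PBS and from 0.0923 to 0.375 CPM in Normoxic retinas, and missed the threshold (1.76 ± 0.69, edgeR adjusted p = 0.168).

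Oas1a is shown because its promoter holds both kinds of element, the GAS first and 2 overlapping ISRE matches near the start (chr5:120907526-120907643, minus strand).
Oas1a: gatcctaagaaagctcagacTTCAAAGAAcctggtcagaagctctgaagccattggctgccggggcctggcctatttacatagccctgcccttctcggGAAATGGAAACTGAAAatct
The ISRE matches end just before the annotated start, and the GAS match lies farther upstream.

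All 4 sensors of foreign nucleic acid rose in PBS retinas. Dhx58 encodes LGP2, a helper of the RNA sensors, and had 4.48, 7.21 and 6.02 CPM in Gel, 11.5, 9.88 and 8.07 CPM in PBS and 3.85, 3.48 and 2.84 CPM in Normoxic retinas. It separated the groups completely, with a tight Normoxic group (log2 fold change of PBS over Normoxic 1.54 ± 0.22, edgeR adjusted p = 0.0028). Zbp1, the sensor of left-handed nucleic acid that can start necroptosis, had 1.04, 1.99 and 1.90 CPM in Gel, 3.70, 3.41 and 2.11 CPM in PBS and 0.512, 0.585 and 0.131 CPM in Normoxic retinas. Its rise of 2.90 ± 0.47, or 7.45-fold, was the largest of the 44 genes (edgeR adjusted p = 0.005), against a Normoxic group that held 4 to 19 counts per library. Ifih1, which encodes the long-RNA sensor MDA5, had 6.70, 8.58 and 8.51 CPM in Gel, 12.6, 10.5 and 9.12 CPM in PBS and 6.14, 5.29 and 3.82 CPM in Normoxic retinas. Again no library of 1 group fell among those of another (1.08 ± 0.20, edgeR adjusted p = 0.00948). Eif2ak2, the kinase PKR that halts translation, rose by 1.27 ± 0.31 (edgeR adjusted p = 0.034), a call that was lost without Normoxic 1, Normoxic 2, Normoxic 3, PBS 1, PBS 2 or Gel 3, where the adjusted p reached 0.0875.

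Of the 14 other effectors, 12 rose in PBS retinas. Ifitm2 and Ifitm3 encode membrane proteins that block viral entry. Ifitm2 had 5.82, 9.87 and 10.1 CPM in Gel, 12.9, 14.0 and 16.7 CPM in PBS and 4.50, 4.65 and 2.91 CPM in Normoxic retinas, and its 3 groups were separate (log2 fold change of PBS over Normoxic 1.87 ± 0.25, edgeR adjusted p = 0.00211). Its transcript is 82.9% identical to that of Ifitm3 over 363 aligned bases. Trim30a, a mouse TRIM protein of innate immunity, had 2.96, 2.75 and 3.97 CPM in Gel, 7.77, 5.21 and 4.75 CPM in PBS and 1.19, 1.91 and 0.817 CPM in Normoxic retinas. PBS 1 stood well above the rest (2.18 ± 0.32, edgeR adjusted p = 0.00352). Bst2, or tetherin, which holds budding virus on the cell surface, had 13.6, 23.9 and 17.8 CPM in Gel, 31.3, 28.7 and 34.9 CPM in PBS and 8.97, 8.43 and 2.97 CPM in Normoxic retinas. All Gel libraries lay in the gap between PBS and Normoxic (2.24 ± 0.34, edgeR adjusted p = 0.00396). Ifitm3 had 21.3, 49.6 and 40.1 CPM in Gel, 69.0, 55.9 and 70.9 CPM in PBS and 14.8, 18 and 6.43 CPM in Normoxic retinas, again without overlap (2.34 ± 0.37, edgeR adjusted p = 0.00425). Xaf1, linked to cell death, had 10.3, 12.9 and 13.1 CPM in Gel, 24.7, 20.7 and 19.4 CPM in PBS and 10.5, 9.51 and 4.67 CPM in Normoxic retinas, and Gel 1 was just under Normoxic 1 (1.4 ± 0.25, edgeR adjusted p = 0.00769).

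Rtp4, Ifi27, Rsad2 and Lgals3bp also rose and, like the 5 genes above, kept their call without any single library. Their log2 fold changes of PBS over Normoxic lay between 1.16 (Ifi27) and 1.93 (Rtp4), and Rsad2, which encodes viperin, an enzyme that makes a chain-terminating nucleotide, rose by 1.69 ± 0.31 (edgeR adjusted p = 0.00888). Samd9l, Ifi35 and Ifi44 rose by 1.57, 0.97 and 1.88, and their calls were lost without Normoxic 2 and in 1 to 4 other such fits each, with an adjusted p of up to 0.0874. Sp100, a protein of nuclear bodies, had 3.60, 4.68 and 3.53 CPM in Gel, 3.79, 3.48 and 5.74 CPM in PBS and 3.10, 3.54 and 0.719 CPM in Normoxic retinas. Only Normoxic 3 stood apart, the other 8 libraries overlapped, and the log2 fold change of PBS over Normoxic was 0.84 ± 0.45 (edgeR adjusted p = 0.307). Cmpk2, a mitochondrial nucleotide kinase, had the smallest PBS over Normoxic difference of the 44 genes. It stood at 14.4, 20.5 and 17.7 CPM in Gel, 18.6, 18.5 and 16.3 CPM in PBS and 16.1, 15.8 and 15.3 CPM in Normoxic retinas. The lowest PBS library was just above the highest Normoxic one, and the difference was 0.19 ± 0.14 (edgeR adjusted p = 0.458).

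Bst2 and Rsad2 are shown as effectors with and without a GAS match beside the ISRE (chr8:71537567-71537628 and chr12:26456543-26456592, both minus strand).
Bst2: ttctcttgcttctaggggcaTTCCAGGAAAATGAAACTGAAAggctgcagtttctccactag
Rsad2: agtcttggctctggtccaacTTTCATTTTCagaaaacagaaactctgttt
In Bst2 the GAS letters and the first ISRE letters share bases, so the capitals form 1 run, while Rsad2 has a single ISRE match.

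Guanylate-binding proteins (GBP) and immunity-related GTPases (IRG) assemble on the vacuoles of intracellular pathogens and are known chiefly as targets of interferon gamma, and 6 of the 8 genes rose in PBS retinas. Gbp2 had 3.57, 7.40 and 6.70 CPM in Gel, 12.1, 8.45 and 11.4 CPM in PBS and 3.34, 3.38 and 1.99 CPM in Normoxic retinas. The groups were separate, although Gel 1 was close to the top of the Normoxic range (log2 fold change of PBS over Normoxic 1.89 ± 0.30, edgeR adjusted p = 0.00495). Igtp had 6.33, 10.9 and 9.46 CPM in Gel, 13.8, 12 and 13 CPM in PBS and 5.80, 6.71 and 5.10 CPM in Normoxic retinas. Its Normoxic libraries lay close together and Gel 1 was among them (1.15 ± 0.21, edgeR adjusted p = 0.00815). Irgm2, an IRG that restrains the others, had 6.67, 9.70 and 9.17 CPM in Gel, 11.5, 12.4 and 10.8 CPM in PBS and 6.68, 6.46 and 3.95 CPM in Normoxic retinas. Gel 1 and Normoxic 1 were level, and the rise of 1.03 ± 0.21 (edgeR adjusted p = 0.0165) missed the threshold without Normoxic 3 (adjusted p = 0.0532). Irgm1, Gbp3 and Gbp7 rose by 1.49, 1.72 and 1.13, each losing its call without Normoxic 1 (adjusted p up to 0.0958 over the fits that left out 1 library, Gbp7 also without Normoxic 2, Normoxic 3, PBS 1 or PBS 2 and Gbp3 also without PBS 1). Gbp5 and Iigp1 did not pass the test, with PBS over Normoxic values of 0.85 ± 0.36 (edgeR adjusted p = 0.206) and 1.01 ± 0.41 (edgeR adjusted p = 0.182).

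Gbp2 is shown as a GBP promoter with a single ISRE match (chr3:142620584-142620633, plus strand), and Igtp and Irgm2 for their likeness (chr11:58199491-58199551 and chr11:58214882-58214942, both plus strand).
Gbp2: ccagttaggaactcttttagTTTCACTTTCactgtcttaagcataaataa
Igtp: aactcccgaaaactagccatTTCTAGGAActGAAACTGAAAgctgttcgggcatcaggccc
Irgm2: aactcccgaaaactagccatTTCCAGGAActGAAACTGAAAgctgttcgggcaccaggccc
The Igtp and Irgm2 stretches of 61 bases differ at 2 positions and hold a GAS and an ISRE match in the same arrangement, and the 2 transcripts are 84.0% identical over 682 aligned bases.

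PARP9 and DTX3L form a complex that joins ADP-ribosylation with ubiquitin transfer, and PARP14 is a further ADP-ribosyltransferase, and all 3 genes rose in PBS retinas. Dtx3l had 6.23, 9.42 and 9.58 CPM in Gel, 15.5, 11.6 and 8.67 CPM in PBS and 5.93, 5.69 and 3.59 CPM in Normoxic retinas, with PBS 3 inside the Gel range (log2 fold change of PBS over Normoxic 1.23 ± 0.26, edgeR adjusted p = 0.0181). Parp9 had 7.41, 13.9 and 11.5 CPM in Gel, 20.7, 16.2 and 15 CPM in PBS and 10.1, 6.80 and 5.16 CPM in Normoxic retinas (1.25 ± 0.27, edgeR adjusted p = 0.0201). Parp14 had 14.6, 19.8 and 15.9 CPM in Gel, 34.3, 26.4 and 14.9 CPM in PBS and 12.4, 10.7 and 4.83 CPM in Normoxic retinas (1.44 ± 0.34, edgeR adjusted p = 0.0297). PBS 1 was the highest library for each of the 3 genes. Every one of these calls was lost without Normoxic 2, Normoxic 3 or PBS 1 (adjusted p up to 0.0893), those of Dtx3l and Parp14 also without Normoxic 1, and that of Parp14 also without PBS 2. Parp9 and Dtx3l overlap in the genome, and because the sources used here do not say whether strand was used in counting, their reads cannot be told apart with certainty.

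**Figure D2:**
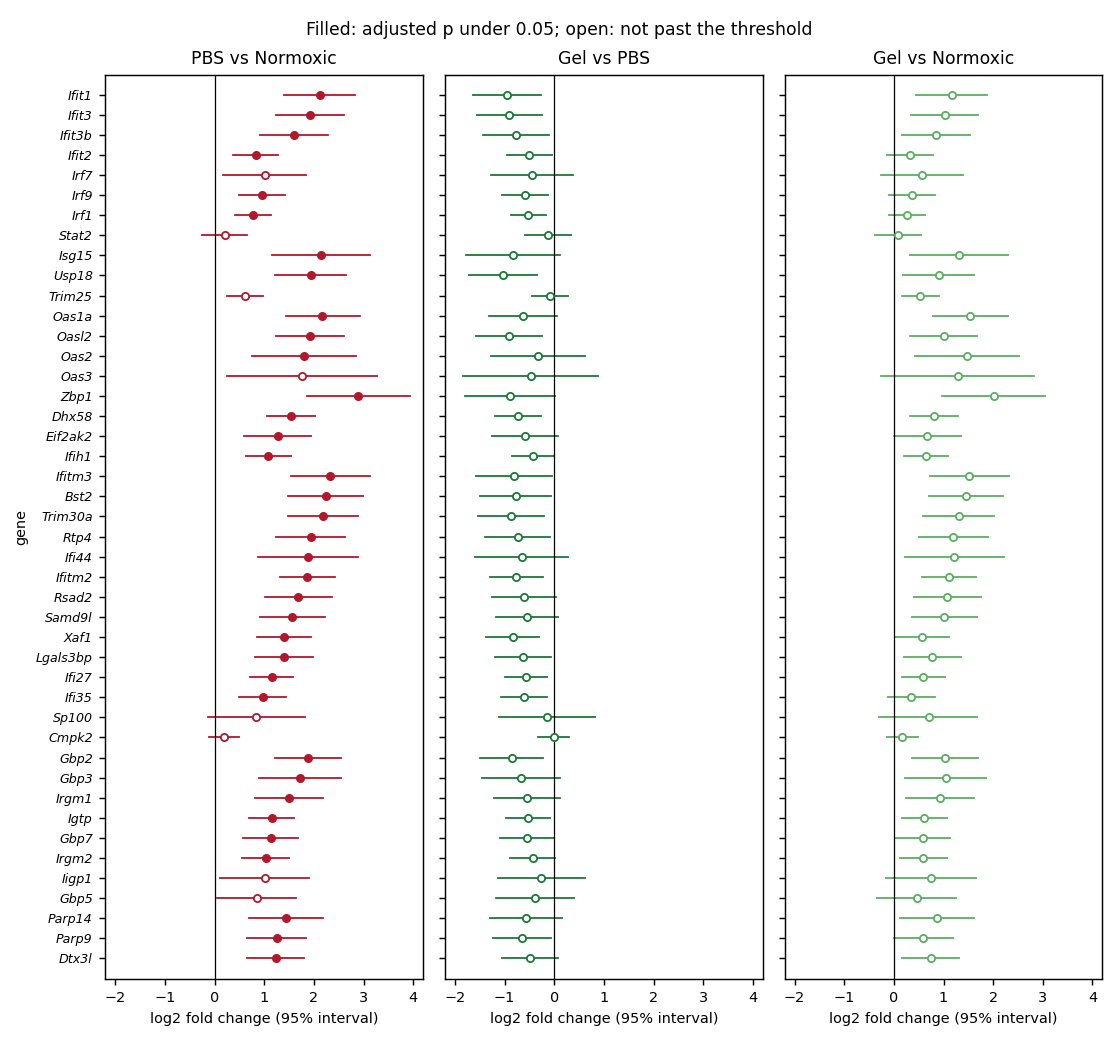
Log2 fold changes (points) with 95% intervals (lines) of the 44 genes in the 3 comparisons, on 1 scale; filled points have an edgeR adjusted p under 0.05. Filled points occur in the PBS over Normoxic panel (36 genes), and the Gel over PBS and Gel over Normoxic panels hold open points to the left and to the right of 0.

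Of the 36 genes that rose in PBS retinas, 19 kept an adjusted p under 0.05 in all 9 fits that each left out 1 library. The other 17 lost it in at least 1 fit, 10 of them without Normoxic 1, 12 without Normoxic 2, 12 without Normoxic 3, 11 without PBS 1, 6 without PBS 2, 1 without Gel 1, 3 without Gel 2 and 4 without Gel 3, and 0 lost it without PBS 3. Markers of microglia and macrophages moved in the same direction. Of 24 such genes in the table, all were tested and 17 were higher in PBS than in Normoxic retinas (11 without Normoxic 1 and 11 without Normoxic 2). Their median log2 fold change was 1.59. Over all tested genes 4.31% were called higher and 2.03% lower. The summed level of the 24 markers was 194 to 261 CPM in Gel, 263 to 394 CPM in PBS and 112 to 126 CPM in Normoxic retinas, and none of them was at 0 in any library. Csf1r, the growth factor receptor of these cells, had 33.4, 35.6 and 35.1 CPM in Gel, 28.7, 32.5 and 36.3 CPM in PBS and 14.6, 13.1 and 15.3 CPM in Normoxic retinas. All 10 genes of a reactive glia list were higher as well, including Gfap at 367, 206 and 223 CPM in PBS against 17.5, 27.5 and 20.1 CPM in Normoxic retinas. Of 12 endothelial cell markers 6 were higher and 1 was lower, with a median of 0.86 and summed levels of 481 to 497 CPM in Gel, 425 to 490 CPM in PBS and 391 to 444 CPM in Normoxic retinas, and 3 were called higher without Normoxic 1 or without Normoxic 2. Of 8 bipolar cell markers 2 were lower (median −0.40, and 0 without Normoxic 2), as were 2 of 8 Muller glia markers (median −0.14, and 0 with the trend with gene length removed). Lymphocyte and natural killer cell markers summed to at most 4.87 CPM in any library and neutrophil markers to at most 2.87 CPM. The part of these cells in the difference was not tested.

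The spread between the Normoxic libraries was itself larger for the interferon-stimulated genes than for the median gene. Normoxic 3 had the lowest Normoxic CPM for 41 of the 44 genes (93.2%), against 39.3% of all tested genes, and Normoxic 2 was lowest for the other 3 genes. The median SD of log2 CPM between Normoxic libraries was 0.55 over the 44 genes and 0.13 over all tested genes. In Gel retinas it was 0.37 against 0.20 and in PBS retinas 0.28 against 0.27. The highest Normoxic library exceeded the lowest more than 2-fold for 22 of the 44 genes (50%), beside 10.9% of all tested genes. Widest were Ifi44 (5.31-fold), Sp100 (4.92-fold), Isg15 (4.76-fold), Zbp1 (4.47-fold) and Oas3 (4.06-fold), and narrowest were Cmpk2 (1.06-fold), Gbp5 (1.20-fold) and Stat2 (1.23-fold). Ifi44, a gene of poorly known function that interferon induces strongly, had 1.67, 1.91 and 0.359 CPM in Normoxic 1 to 3.

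Averaged over the 44 genes on the log2 scale and set to 0 at the Normoxic mean, the libraries stood at 0.50, 1.14 and 0.98 in Gel, 1.64, 1.47 and 1.35 in PBS and 0.36, 0.25 and −0.61 in Normoxic retinas. Normoxic 1 and Normoxic 2 were thus close to Gel 1, and the Normoxic libraries spanned 0.97 on this scale. The median difference of Normoxic 3 from the other Normoxic libraries was −0.89 over the 44 genes, −0.03 over all tested genes and 0.12 over the microglia and macrophage markers, so those markers were not low in that library. Markers of the pigment epithelium and choroid, tissue next to the retina, were low there: on the scale set to 0 at the Normoxic mean the 7 genes stood at 0.88, −0.06 and −0.83 in Normoxic 1 to 3, with summed levels of 103, 48.1 and 27 CPM. They summed to 137 to 212 CPM in Gel and 59.7 to 229 CPM in PBS retinas, and 0 of the 7 were called in PBS over Normoxic by edgeR. The 2 tested lens genes stood at −0.51, 1.83 and −1.32 in Normoxic 1 to 3. The 6 lens genes in the table summed to 2.18, 27.3 and 1.7 CPM there, so Normoxic 2 stood apart. These sums were 1.26 to 4.98 CPM in Gel and 0.86 to 2.7 CPM in PBS retinas. The part of these tissues in the low values was not tested. The correlation of Normoxic 3 with gene length was 0 and its share of counts in ribosomal protein genes was 1.09%, as in Normoxic 2. Without Normoxic 3 the median log2 fold change of PBS over Normoxic was 1.17 and 24 of the 44 genes were called, against 1.47 and 36 with it.

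**Figure D3:**
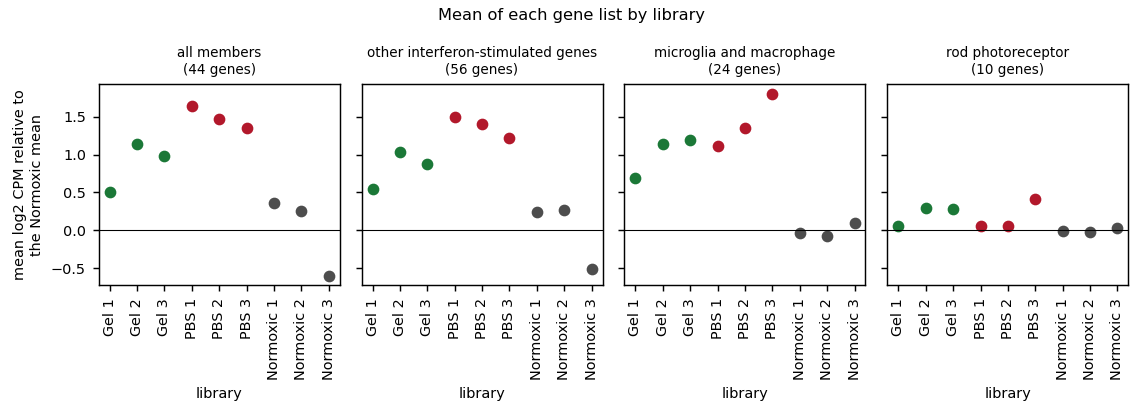
Mean log2 CPM of 4 gene lists in each library (points, coloured by group), set to 0 at the mean of the Normoxic libraries. Normoxic 3 is the lowest library for the 44 interferon-stimulated genes and for another list of 56 such genes, and it is not the lowest for the microglia and macrophage list.

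Gel compared with PBS retinas asks what the PCC1 hydrogel changed in the OIR retina. No interferon-stimulated gene passed the test (0 of 44 in either direction by edgeR, beside 0% of all tested genes), and DESeq2 and limma-voom also called 0. On simulated counts the test called 10.5% of 1.5-fold changes in this comparison, so the absence of calls cannot decide on changes of that size. At an unadjusted p under 0.05, 22 of the 44 genes were lower in Gel retinas and 0 higher, beside 3.77% and 1.77% of all tested genes. That count of 22 was 11 without Gel 1, 11 without PBS 1 and 11 with the trend with gene length removed. The log2 fold change was negative for all 44 genes, with a median of −0.60 and a range of −1.03 (Usp18) to −0.01 (Cmpk2), beside a median of −0.01 over all tested genes, of which 52.7% were below 0 and 47.3% above. For 27 of the 44 genes the 3 Gel libraries lay below the 3 PBS libraries without overlap, beside 5.15% of all tested genes.

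The 5 genes with the smallest unadjusted p were Dhx58, Xaf1, Usp18, Irf1 and Ifitm2, whose library values are given above and whose Gel and PBS libraries did not overlap. The log2 fold change of Gel over PBS was −0.73 ± 0.21 for Dhx58, a ratio of 0.605 (edgeR adjusted p = 0.62). Usp18 had the most negative value, −1.03 ± 0.31, with a 95% interval of −1.72 to −0.35 and a ratio of 0.489 (edgeR adjusted p = 0.63). Values for Xaf1, Ifitm2 and Irf1 were −0.83 ± 0.24, −0.76 ± 0.24 and −0.52 ± 0.16 (edgeR adjusted p of 0.625, 0.65 and 0.65). Among roles, the median was −0.83 for the IFIT proteins and for the ISG15 system, −0.66 for the sensors, −0.64 for the other effectors, −0.58 for PARP9, PARP14 and DTX3L, −0.55 for the OAS family, −0.54 for the GTPases and −0.48 for the transcription factors. At the other end, Stat2 (−0.12 ± 0.21), Trim25 (−0.08 ± 0.17), Sp100 (−0.15 ± 0.44) and Cmpk2 (−0.01 ± 0.14) differed least. The intervals of Stat2 and Cmpk2 ran from −0.58 to 0.34 and from −0.32 to 0.29.

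Gel 1 set much of the Gel spread. It was the lowest Gel library for 38 of the 44 genes, beside 40.3% of all tested genes, and it lay below the lowest PBS library for 40 genes, against 29 for Gel 2 and 31 for Gel 3. The median difference of Gel 1 from the other Gel libraries was −0.58 over the 44 genes, −0.01 over all tested genes and −0.50 over the microglia and macrophage markers, so those markers were low there as well. Their part in its low values was not tested. Without Gel 1 the median log2 fold change of Gel over PBS was −0.48, without Gel 2 it was −0.77, and in each of the 9 fits that left out 1 library 0 of the 44 genes were called. For the microglia and macrophage list the Gel over PBS median was −0.52. Of the 24 genes 21 were below 0 and 3 above, among them Csf1r with a log2 fold change of 0.09. By edgeR, DESeq2 or limma-voom 0 of 24 were called. At an unadjusted edgeR p under 0.05, 6 were lower (3 without Gel 1, 3 without PBS 3, 3 with the length trend removed and 11 without PBS 1). The reactive glia list had a Gel over PBS median of −0.79, with 9 of 10 genes below 0 and 1 above. Of these 10 genes edgeR and limma-voom called 0, and DESeq2 called 2 lower and 1 higher. At an unadjusted edgeR p under 0.05, 8 were lower and 1 higher.

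**Figure D4:**
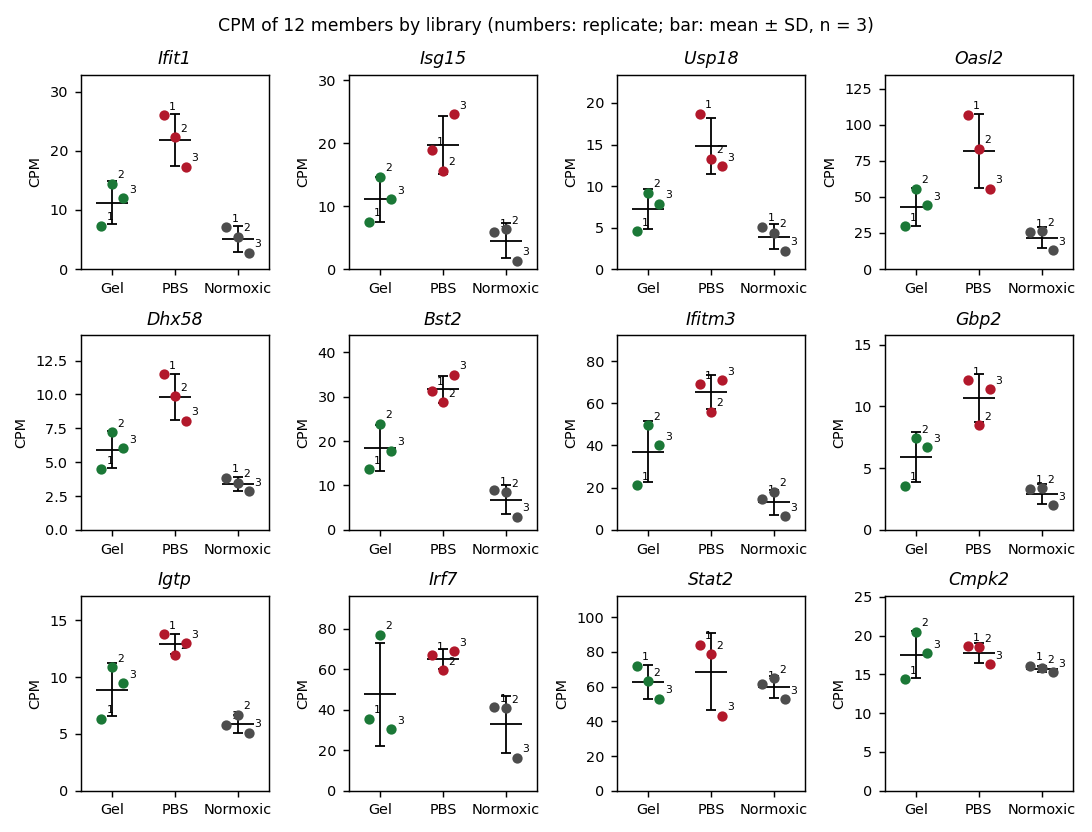
CPM of 12 of the 44 genes in each library (points, numbered by replicate), with the group mean and SD (bars, n = 3). From Ifit1 to Igtp the Gel mean lies between the PBS and the Normoxic mean and Gel 1 is the lowest Gel library. The Gel and PBS libraries of Irf7, Stat2 and Cmpk2 overlap, and in Oasl2 Gel 2 and PBS 3 are level.

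Gel compared with Normoxic retinas asks how far treated OIR retinas remain from normoxic ones. The log2 fold change was above 0 for all 44 genes, with a median of 0.83 and a range of 0.08 (Stat2) to 2.01 (Zbp1), beside a median of 0 over all tested genes, of which 50.1% were above 0 and 49.9% below. By edgeR 0 of the 44 genes were called, beside 1.12% of all tested genes called higher and 0.288% called lower, and 33 of the 44 were higher and 0 lower at an unadjusted p under 0.05, beside 7.19% and 6.04%. The count of 33 was 18 without Gel 2. The adjusted count depended on the setting: limma-voom called 0, DESeq2 called 14, edgeR without the filter on low counts called 10, edgeR without Gel 1 called 4, and edgeR without PBS 3, which is no part of the contrast but enters the spread, called 11. For 25 of the 44 genes all Gel libraries lay above all Normoxic libraries, beside 11.1% of all tested genes. The smallest edgeR adjusted p-values were 0.057 for Oas1a (1.54 ± 0.34), 0.0609 for Ifitm2 (1.11 ± 0.25) and 0.0679 for Bst2 (1.46 ± 0.34).

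The mean CPM of Gel lay below that of PBS and above that of Normoxic retinas for all 44 genes, an order held by 27.6% of all tested genes. Single Gel libraries differed in it. Gel 2 and Gel 3 exceeded the highest Normoxic library for 42 and 41 of the 44 genes, and Gel 1 for 27, with 15 genes inside the Normoxic range and 2 below it. The 44 genes summed to 526, 783 and 647 CPM in Gel, 1130, 953 and 853 CPM in PBS and 483, 467 and 279 CPM in Normoxic retinas. Gel 1 was the injected library nearest to the Normoxic ones on this sum too. Both comparisons of PBS use the same PBS libraries and are not independent, so the order of the group means is a description and was not tested.

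Further genes of the pathway were taken from lists that do not contain the 44 genes. The interferons themselves were almost undetected. Of 20 ligand genes 3 were in the table, with 2 counts of Ifnab in Gel 3, 1 count of Ifnl2 in Gel 1 and 1 count of Ifng in Normoxic 3, and none had enough counts to be tested. Of the 6 receptor genes 0 were called in PBS over Normoxic by edgeR, DESeq2 or limma-voom, and the median log2 fold change was 0.25. At an unadjusted edgeR p under 0.05, 2 were higher, beside 12.3% of all tested genes. Ifnar1, a chain of the type I receptor, differed by 0.03 ± 0.09 between PBS and Normoxic retinas, and Il10rb, which serves the lambda interferons, by 0.64 ± 0.22 (edgeR adjusted p = 0.12). Between the same groups the receptor kinase Jak1 differed by 0.07 ± 0.11 and Tyk2 by −0.11 ± 0.25.

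Of 16 tested genes that sense nucleic acid upstream of interferon or relay that signal, 5 rose in PBS retinas, beside 4.31% of all tested genes. The 5 were Irf8, Sting1, Tlr3, Myd88 and Tlr7. Irf8, a transcription factor that microglia need and that is a known marker of them, rose by 1.58 ± 0.26 (edgeR adjusted p = 0.0054). Tlr3, an endosomal receptor for RNA, rose by 1.16 ± 0.25 (edgeR adjusted p = 0.0194), and Sting1, the adaptor of the DNA sensor cGAS, by 1.75 ± 0.36 (edgeR adjusted p = 0.0167). The call of Irf8 held without any single library, whereas that of Sting1 was lost without Normoxic 1 or Normoxic 2 with an adjusted p that reached 0.0802 and that of Tlr3 without Normoxic 2, Normoxic 3 or PBS 1 (adjusted p up to 0.0886). Myd88 and Tlr7 rose by 0.69 and 2.77, and their calls were lost without Normoxic 1, Normoxic 2, Normoxic 3 or PBS 1, that of Tlr7 also without Gel 2 (adjusted p up to 0.143). Of the 7 negative regulators Socs3, an inhibitor of JAK kinases, rose by 2.15 ± 0.43 (edgeR adjusted p = 0.0145, and up to 0.0756 without Normoxic 1, Normoxic 2 or Normoxic 3), with 29.3, 14.5 and 7.34 CPM in PBS against 4.16, 4.49 and 2.84 CPM in Normoxic retinas. Socs1, the other inhibitor of this kind on the list, differed by 0.04 ± 0.40.

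Another list held 66 further interferon-stimulated genes, of which 62 were in the table and 56 were tested. In PBS over Normoxic 22 of them rose and 0 fell, beside 4.31% and 2.03% of all tested genes. At an unadjusted edgeR p under 0.05, 1 was lower, and DESeq2 and limma-voom called 0 lower. The median log2 fold change was 1.17. Without Normoxic 1 or without Normoxic 3, 13 rose. Ifi204, a DNA-binding protein of the HIN family, had 1.41, 2.78 and 2.05 CPM in Gel, 4.27, 3.44 and 2.67 CPM in PBS and 0.341, 0.308 and 0.294 CPM in Normoxic retinas. Its Normoxic libraries were level, and its rise of 3.45 ± 0.35 in PBS had the smallest adjusted p of the list (edgeR, 0.000518). Lgals9, a galectin, had 16.2, 27.5 and 25.2 CPM in Gel, 35.2, 29.5 and 40.2 CPM in PBS and 8.59, 9.29 and 5.72 CPM in Normoxic retinas (2.17 ± 0.24, edgeR adjusted p = 0.000736). The related HIN gene Ifi211 rose by 3.51 ± 0.40 (edgeR adjusted p = 0.000838), and Ifi204, Lgals9 and Ifi211 kept their calls without any single library. On the scale of mean log2 CPM set to 0 at the Normoxic mean, this list stood at 0.24, 0.27 and −0.51 in Normoxic 1 to 3, again lowest in Normoxic 3.

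Over all of these pathway lists 29 of 89 tested genes rose in PBS over Normoxic, beside 4.31% of all tested genes. Of the 89 genes 16, 16, 15 and 19 rose without Normoxic 1, Normoxic 2, Normoxic 3 and PBS 1. In Gel over PBS 0 of 89 were called by edgeR, DESeq2 or limma-voom, and the median was −0.44. At an unadjusted edgeR p under 0.05, 24 were lower and 1 higher, beside 3.77% and 1.77% of all tested genes. The count of 24 was 11 without PBS 1 and 16 without Gel 1, without Gel 3 or with the length trend removed. In Gel over Normoxic 7 of 89 rose, 6 of them on the list of further interferon-stimulated genes, beside 1.12% of all tested genes. Of the 89 genes 1 to 3 rose without Normoxic 1, Normoxic 2, Normoxic 3, Gel 2 or Gel 3, against 13 without PBS 3. Ifi204 rose there by 2.73 ± 0.35 (edgeR adjusted p = 0.00484), a call that held without any single library. Lgals9 rose by 1.56 ± 0.24 (edgeR adjusted p = 0.0102) and missed the threshold without Normoxic 1 (adjusted p = 0.069). Ifi211 rose by 2.71 ± 0.41 (edgeR adjusted p = 0.00989) and lost its call without Normoxic 1 or Normoxic 2 with an adjusted p that reached 0.0695.

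The promoter letters can be counted for the 35 of the 44 genes found in the RefSeq table of GRCm38.p6 promoters, in windows of 300 bases (250 before and 50 after the annotated start). An ISRE match stood in 21 of the 35 (60.0%), against 3.99% of all 27025 genes of that table. A GAS match stood in 11 of the 35 (31.4%), against 9.55% of all genes, 8 genes had both and 11 had neither. All 7 GBP and IRG genes found there had an ISRE match and 4 had a GAS match, whereas among the 4 transcription factors Stat2 had an ISRE match and Irf1 a GAS match. Of the 28 matched genes that rose in PBS retinas 18 had an ISRE match, and of the 7 that did not pass the test 3 had one (Stat2, Oas3 and Gbp5). Rises without either element in the window include Irf9, Oasl2, Xaf1, Lgals3bp, Ifi44, Samd9l and Dtx3l. A match describes letters in a fixed window of another build, neither binding nor its absence.

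**Figure D5:**
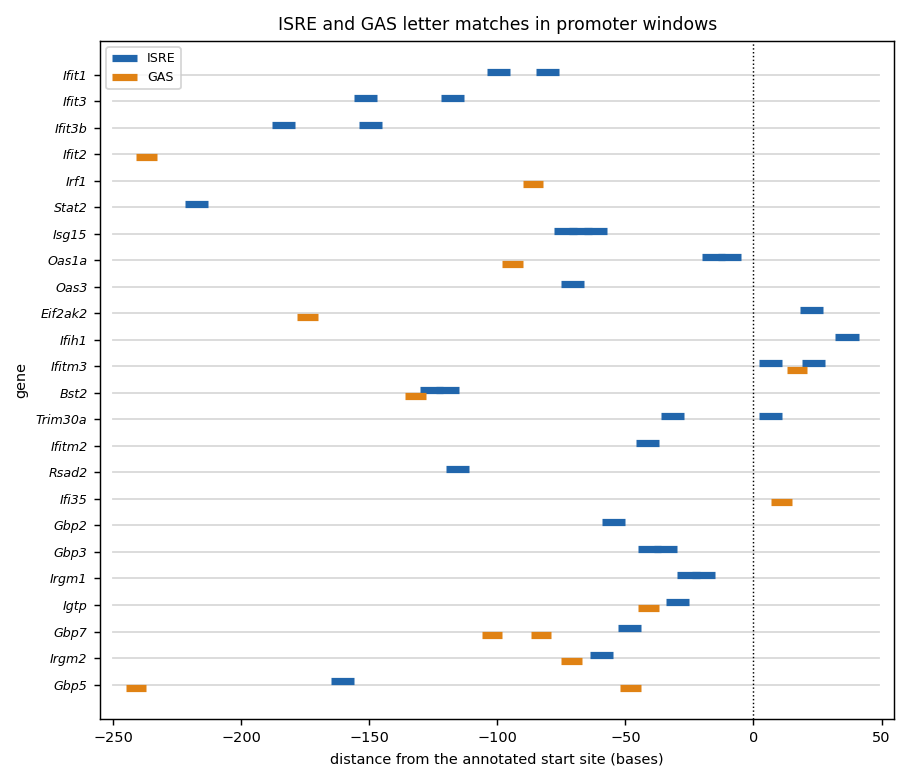
Positions of ISRE (blue) and GAS (orange) letter matches in the promoter windows of the 24 genes with at least 1 match; the horizontal axis is the distance in bases from the annotated start (dotted line). Of 32 ISRE matches 27 lie before the start and 22 in the last 150 bases before it, and of 13 GAS matches 11 and 8 do.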

How the data were processed

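RNA of 9 mouse retina libraries was measured per gene. The authors deposited a table of whole-number counts and a table of FPKM values, and the submitters' processing notes list DESeq2 1.4.5, RSEM 1.3.1, Bowtie2 and GRCm39 without saying what each did. Not given in the sources used here are strandedness and whether RSEM estimates were rounded to give the counts. FPKM values, as deposited, are the counts rescaled by library total and a fixed gene length (the implied lengths vary by at most 2.89e-10 in relative terms), and they served to compare levels between genes.

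Counts were tested in R 4.3.3 with edgeR 4.0.16: filterByExpr with a minimum count of 10 (17362 of 26683 genes kept), TMM scaling, and a quasi-likelihood F test, with 1 model of group over the 9 libraries. P-values were adjusted by Benjamini-Hochberg over all kept genes, and a gene is said to have risen or fallen where the adjusted p was under 0.05. CPM uses the library total. Each ± after a log2 fold change is its standard error, derived from the F statistic, and counting error alone is larger for genes of few counts. DESeq2 1.42.0, limma-voom (limma 3.58.1), other scaling, no filter, removal of a trend with gene length, 2 groups only, a replicate block and leaving out each library were alternatives. The test was tried on simulated counts with known changes of 1.5-fold, 2-fold and 4-fold. In Gel over PBS it called 10.5%, 73.7% and 88.1% of them. It called 15.8%, 64.4% and 83.1% in PBS over Normoxic, and 17.9%, 64.3% and 88.9% in Gel over Normoxic. The false call percentage was 5.45 in PBS over Normoxic, 4.39 in Gel over PBS and 8.13 in Gel over Normoxic. In the RefSeq gene annotation, 16 of the 44 genes overlap another annotated gene, which for 8 is protein-coding. Promoter letters were searched on both strands.

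The 45 genes, the lists and the tests were chosen with earlier results of these data known. Named with every library's value were the 3 genes of smallest p in each role in PBS over Normoxic, the 5 of smallest p in Gel over PBS and those against the direction of most; from each pathway list, up to 4 genes by p and every ligand with a count. Irf7, Stat2, Sp100, Cmpk2, Ifitm3, Ifi44, Csf1r, Gfap, Gnat1, Ifnar1, Jak1, Tyk2 and Socs1 were added after their values were seen. The values of 1 gene counted in the pathway totals are not reported here.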

Additional observations from a re-analysis of the deposited data

How the results depend on the processing

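In PBS over Normoxic the count of called genes stayed within 1.5 times of 36 under every alternative run (29 to 37, and 24 to 37 when 1 library was left out). The median log2 fold change of the 44 genes ran from 1.17 to 1.62 over the fits without 1 library, was lowest without Normoxic 3, and was 1.17 with Normoxic 3 and Gel 1 both left out, a setting chosen after seeing the data. The 29 called pathway genes became 15 to 33 without 1 library (16, 16, 15 and 19 without Normoxic 1, Normoxic 2, Normoxic 3 and PBS 1) and 15 without Normoxic 3 and Gel 1. In Gel over PBS 0 of the 44 genes were called under any alternative run. The 22 lower there at an unadjusted p under 0.05 were 11 to 32 without 1 library and 11 with the length trend removed. In Gel over Normoxic 0 of the 44 genes became 10 with no filter, 14 with DESeq2, 6 with the length trend removed, 6 with 2 groups only, 0 to 11 without 1 library (11 without PBS 3, 4 without Gel 1) and 3 without Normoxic 3 and Gel 1. The 7 called pathway genes there became 18 with DESeq2 (17 higher, 1 lower), 4 with limma-voom, 1 to 14 without 1 library and 4 without Normoxic 3 and Gel 1. The cause was not tested.

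The labels do not say whether a replicate number is shared by animals or litters. Deviations of same-numbered libraries correlated at −0.07 to −0.05 between PBS and Normoxic and −0.10 to −0.04 between Gel and Normoxic. Between Gel and PBS they correlated at 0.33, −0.21 and 0.36 for numbers 1 to 3, beside −0.51 to 0.3 for differently numbered libraries. With the number as a replicate block, 37 of the 44 genes were called in PBS over Normoxic, 0 in Gel over PBS and 0 in Gel over Normoxic. Scaling by TMM moved the span of the Normoxic means from 0.97 to 0.94. Depth limits Oas2 and Oas3 most, with 3 to 51 counts per library.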

Other observations

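Among the further interferon-stimulated genes, 2 that rose in Gel over Normoxic had not passed the test in PBS over Normoxic. Slfn5, a Schlafen family gene, had 8.21, 10.9 and 12 CPM in Gel, 6.91, 9.85 and 9.51 CPM in PBS and 5.69, 5.57 and 4.83 CPM in Normoxic retinas. It rose by 0.96 ± 0.19 in Gel over Normoxic (edgeR adjusted p = 0.0388, and up to 0.156 without Normoxic 1, Normoxic 2, Normoxic 3, PBS 2, Gel 2 or Gel 3), while the PBS over Normoxic value was 0.72 ± 0.19 (edgeR adjusted p = 0.0525). Sp140, a nuclear body protein related to Sp100, had 0.539, 0.449 and 0.801 CPM in Gel, 0.191, 0.170 and 0.169 CPM in PBS and 0.171, 0.0923 and 0.0980 CPM in Normoxic retinas, from 3 to 27 counts per library. Its Gel libraries were above all others, unlike those of the 44 genes, for which the Gel mean was below the PBS mean throughout. The rise of Sp140 in Gel over Normoxic was 2.29 ± 0.48 (edgeR adjusted p = 0.0445, a call lost in every fit without 1 library except that without PBS 3, with an adjusted p of up to 0.227), and the Gel over PBS value was 1.73 ± 0.45 (edgeR adjusted p = 0.576). Both genes were singled out after their values were seen.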
